A study of Mus musculus with 23 samples.

Results

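Transcript levels of Amph and of 8 other genes that shape or hold membranes of the cardiomyocyte T-tubule system were read from left ventricles of 23 male mice. The genes are Amph, Bin1, Jph1, Jph2, Mtm1, Dnm2, Dysf, Cav3 and Ehd4, and they were taken by name from the gene annotation of the arrays. That gave 19 probes of 56605 on the array, and 17 of the 35718 that were bright enough to be tested. Amph was chosen by its course over the 4 groups on these same arrays, so its values are given as a description with no test. The other 8 genes were listed by function.

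Transverse tubules (T-tubules) are inward folds of the cardiomyocyte surface that bring calcium channels close to the calcium release channels of the sarcoplasmic reticulum. They mature after birth, when proteins with a crescent-shaped BAR domain bend the membrane, junctophilins tether it to the sarcoplasmic reticulum, and lipid enzymes, caveolins, dynamins and repair proteins remodel it. Amph encodes amphiphysin, a BAR-domain protein best known from clathrin-dependent endocytosis at nerve endings, and Bin1 encodes its close relative amphiphysin 2, which forms T-tubules in muscle.

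The mice were wild type (WT) or lacked Efnb1 in cardiomyocytes (Efnb1cKO). Both genotypes were on the mixed S129/S4 × C57BL/6 background and were sampled 20 days (P20) or 60 days (P60) after birth. Each genotype had 6 mice at the younger age, and the older age had 5 WT and 6 knockout mice, each on an array of its own and without treatment. The Cre line, and whether the WT mice carried a floxed allele or Cre, are not given in the sources used here. Efnb1 encodes ephrin-B1, a membrane ligand of Eph receptors, and its probe kept 78.7% of the WT signal at P20 and 71.8% at P60 in whole ventricle (limma adjusted p = 0.77 and 0.065). Between 59.9% and 64.2% of the spots of an array were well above background, none was saturated, and arrays of one group correlated at 0.9892 to 0.9961. In such bulk tissue, fewer cells of a type and less RNA per cell cannot be told apart. Of the 8 cardiomyocyte markers, all were above background on the 23 arrays and none passed the threshold for genotype at either age. Levels are log2 intensities scaled to each array's 75th percentile, and levels of different probes cannot be compared with each other.

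Of the 3 Amph probes, only 1 read Amph above background, and everything said of Amph rests on it. A_51_P423518 lies on the plus strand of chromosome 13, at 19242694 to 19242753 of mm9, and starts at base 3124 of its transcript. It was well above background on all 23 arrays, with a spot 4.34 to 11.8 times as bright as its local background. A_51_P460739, at 19193342 to 19193401, was well above background on 0 arrays, and A_55_P2022870, at 19211834 to 19211893, on 1 WT array at P20. Both dim probes were designed on other transcript models, lie on the same strand, and give no level for Amph. Which exon or untranslated region each probe reads was not determined here. The first 30 bases of the 60 of each probe are given so that the readable and the dim parts of the gene can be told apart:
Amph A_51_P423518: aacgaggtgatgtatgctgtatcagaaacc
Amph A_51_P460739: ttgcaacctttccacatgtcatcagtgtct
Amph A_55_P2022870: tgatctccttgacagatgtacctcttgata

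Amph was lower in Efnb1cKO than in WT ventricles, slightly at P20 and, under the main processing, by more than a factor of 2 at P60. The level was higher at P60 than at P20 in WT, and lower at P60 than at P20 in Efnb1cKO. In the 6 WT mice at P20 the Amph levels were 6.79, 6.85, 6.91, 6.96, 6.98 and 6.99. In the 6 Efnb1cKO mice at P20 they were 6.41, 6.42, 6.43, 6.48, 6.67 and 6.95. All but 1 of these knockout mice lay below every WT mouse, and the exception, replicate 6, lay inside the WT range. The P60 levels were 7.06, 7.07, 7.28, 7.44 and 7.45 in WT and 5.96, 6.08, 6.09, 6.16, 6.20 and 6.22 in Efnb1cKO mice. At this age the genotypes did not overlap, and the highest knockout mouse lay below the lowest mouse of each of the other groups.

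**Figure D1:**
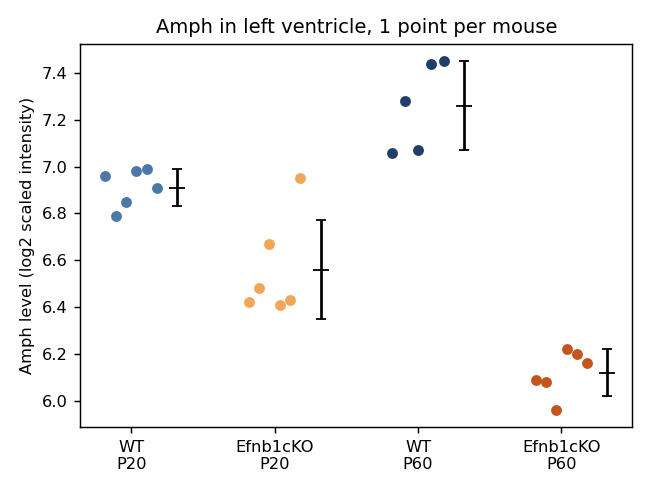
Level of Amph (probe A_51_P423518) in each left ventricle, on the log2 scale after scaling to the array's 75th percentile, in the 4 groups of genotype and age. Each point is 1 mouse, and the bars give the mean and SD; the 6 Efnb1cKO mice at P60 lie between 5.96 and 6.22, the 5 WT mice at P60 between 7.06 and 7.45.

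The group means ordered from 6.12 ± 0.10 (SD, n = 6) in Efnb1cKO at P60, through 6.56 ± 0.21 (SD, n = 6) in Efnb1cKO at P20 and 6.91 ± 0.08 (SD, n = 6) in WT at P20, to 7.26 ± 0.19 (SD, n = 5) in WT at P60. The 2 groups in the middle of this order overlapped, and the other neighbours did not. The genotype difference was -0.35 (SE 0.088) at P20, where the knockout signal was 78.4% of WT, and -1.14 (SE 0.092) at P60, where it was 45.4%. The age difference was 0.35 (SE 0.092) in WT and -0.44 (SE 0.088) in Efnb1cKO ventricles. The genotype difference at P60 was more negative than that at P20, by -0.79 (SE 0.13). Groups without overlap were found for 2% of all tested probes in the genotype comparison at P60, 22.5% for age in WT and 20.2% for age in Efnb1cKO.

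The size of the Amph difference, but not its direction, varied over 13 other ways of processing, from -1.2 to -0.69 at P60. With normexp background correction, which also adds an offset, the P20 difference was -0.21 and the P60 difference was -0.69, less than a factor of 2. The age difference in Efnb1cKO was then -0.23 and the difference between the genotype effects was -0.49. The P60 difference was also less than a factor of 2 with the median spot signal and with the authors' deposited values. The arrays were hybridised on 3 slides that each held all 4 groups. Within slides 1, 2 and 3 the P60 genotype difference was -1.14, -1.08 and -1.29. At P20 it was -0.50, -0.43 and -0.13, and slide 3 held the 2 highest knockout mice of that age, replicates 3 and 6. The P20 difference was -0.43 without Efnb1cKO replicate 6.

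The nearest protein-coding gene on each side of Amph, by the order of the RefSeq table of GRCm38.p6, was looked at after the values of Amph had been seen. Vps41 encodes a subunit of a complex for traffic from endosome to lysosome, and its P60 genotype difference was 0.06 (SE 0.054, limma adjusted p = 0.85). Stard3nl, on the other side, differed by 0 (SE 0.048, adjusted p = 1). Neither passed the threshold for genotype at P20 or for the interaction.

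The genes whose levels followed Amph most closely were ranked by Pearson's r over the 23 arrays among 16892 genes, as a description. The points share the 4 group means and the scaling of each array. Exoc2, a subunit of the exocyst that docks secretory vesicles, had the highest r at 0.883. Its mean was 10.23 in WT and 10.18 in Efnb1cKO at P20, then 10.44 in WT and 10.05 in Efnb1cKO at P60. Like Amph, it was higher at P60 than at P20 in WT (0.20) and lower in Efnb1cKO (-0.13), over a narrower range. Cobll1 (r = 0.848), Gm10635 (0.822), Dcakd (0.813) and Tesc (0.808) followed, with P60 genotype differences of -0.21, -0.84, -0.72 and -0.26. After each group's mean was taken away, the genes of highest r were others: B630019K06Rik (0.849), Sema3c (0.774), Cd28 (0.769), Tcf19 (0.766) and Acap2 (0.764). Exoc2 then had an r of 0.375 and Dcakd of 0.00389, so the likeness of these genes to Amph lay mostly in the group means. Gm10635 and Tesc had 0.276 and 0.205, while Cobll1 kept an r of 0.643.

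Among the members themselves, each read by its brightest probe, r with Amph over the 23 arrays ranged from -0.54 for Ehd4 to 0.52 for Mtm1. With group means taken away it was 0.58 for Mtm1, -0.66 for Cav3 and 0.31 for Bin1. The Cav3 value leans on single mice. Efnb1cKO replicate 6 at P20 (Cav3 14.36, Amph 6.95) was lowest for Cav3 and highest for Amph in its group. So was WT replicate 6 at P60 (Cav3 13.96, Amph 7.45). The r without these mice was not computed.

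The 8 other genes were compared between genotypes to see whether they moved with Amph. None of their 16 probes passed the threshold at P20 or at P60 (limma adjusted p of at least 0.74 and 0.10). Among all tested probes 0.0252% passed at P20 and 0.599% at P60. Unadjusted p lay under 0.05 for 2 of the 16 probes at P20 and for 4 at P60, and for 1627 and 3115 of all 35718 tested probes. Their differences ran from -0.58 to 0.11 at P20 with a median of -0.05, and from -0.26 to 0.27 at P60 with a median of -0.06. The medians over all probes were -0.0016 and -0.0024.

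**Figure D2:**
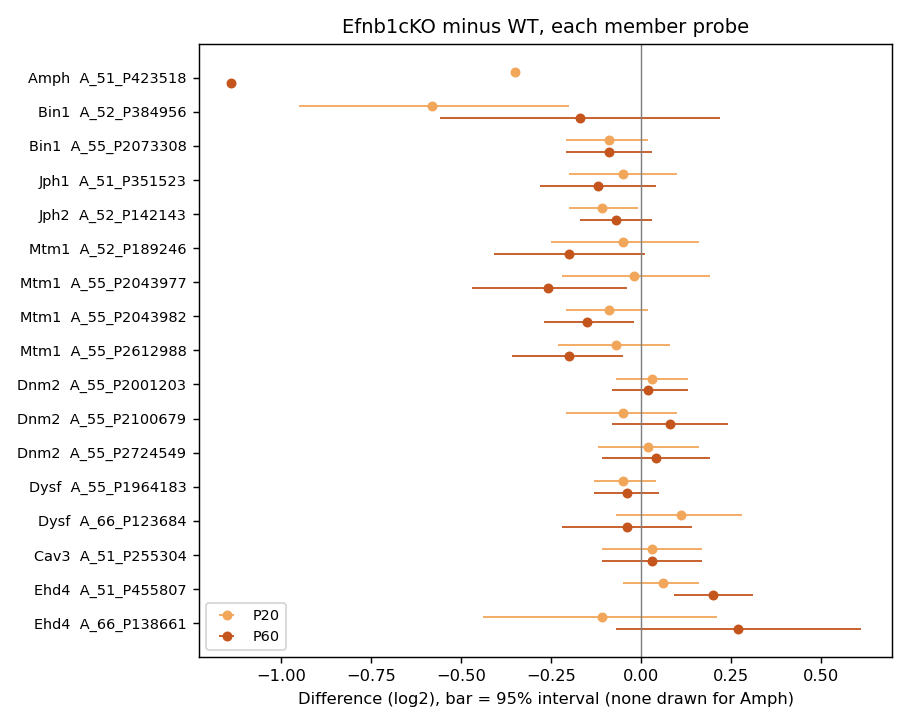
Difference between Efnb1cKO and WT ventricles (log2, knockout minus WT) at P20 and P60 for the 17 tested probes, named by gene and probe. Points are differences of group means and bars are 95% intervals for the 16 probes of the other genes, whose P60 differences lie between -0.26 and 0.27. Amph, chosen by its course over these groups, is drawn without an interval.

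Bin1 was read by 2 probes of unequal quality on chromosome 18. The bright one, A_55_P2073308, had a lowest, median and highest level of 10.05, 10.15 and 10.31 in WT and 9.95, 10.07 and 10.17 in Efnb1cKO at P20. In the P60 groups these were 9.92, 9.99 and 10.11 in WT and 9.82, 9.91 and 10.10 in Efnb1cKO. The genotypes overlapped at both ages, with 3 of 6 knockout mice below every WT mouse at P20 and 5 of 6 at P60. The exception at P60 was replicate 6, at 10.10. The difference was -0.09 at each age, with 95% intervals of -0.21 to 0.02 and -0.21 to 0.03 (limma adjusted p = 1 and 0.74). The dim probe A_52_P384956 was above background on 19 of 23 arrays, on 3 of 6 in Efnb1cKO at P20. It gave the lowest P20 value among these genes, -0.58 (SE 0.18, adjusted p = 0.74), which was as small as -0.08 under other processing.

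Junctophilin genes, whose products span the gap between T-tubule and sarcoplasmic reticulum, had estimated differences from WT of at most 0.12 under the main processing. Jph2, the main cardiac form, read 12.38, 12.41 and 12.50 (lowest, median, highest) in WT and 12.23, 12.31 and 12.43 in Efnb1cKO at P20. Its difference was -0.11 (95% interval -0.20 to -0.01, adjusted p = 1) at P20 and -0.07 (-0.17 to 0.03, adjusted p = 0.75) at P60. Jph1 differed by -0.05 and -0.12 (adjusted p = 1 and 0.72), with 95% intervals of -0.20 to 0.10 and -0.28 to 0.04. Its P60 difference ran from -0.19 to -0.05 under other processing.

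Mtm1 encodes myotubularin, a phosphatase of membrane phosphoinositides, and had 4 probes spread over the gene on chromosome X. All 4 read lower in Efnb1cKO than in WT at P60, and none passed the threshold. Their differences were -0.26, -0.20, -0.20 and -0.15, with adjusted p between 0.35 and 0.60. At P20 the same probes lay between -0.09 and -0.02. The P60 value of -0.26 came from the dim probe A_55_P2043977, and was -0.09 with normexp background correction. Within slides 1, 2 and 3 that probe differed by -0.31, -0.44 and 0.06. For the brightest, A_55_P2043982, the P60 levels were 8.75, 8.81, 8.86, 8.87 and 8.88 in WT, and 8.61, 8.64, 8.65, 8.66, 8.76 and 8.81 in Efnb1cKO. Here 4 of the 6 knockout mice lay below every WT mouse and the other 2 lay in the WT range. The 4 probes share 1 gene and the same mice, so they are not 4 separate observations.

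Ehd4, an ATPase of the EHD family that acts on recycling endosomes, came nearest to the threshold at P60, in the direction opposite to Amph. Probe A_51_P455807 read 15.00, 15.03, 15.07, 15.09 and 15.11 in WT, and 15.07, 15.21, 15.29, 15.31, 15.32 and 15.36 in Efnb1cKO at P60. Of the 6 knockout mice, 5 lay above every WT mouse, and replicate 6 lay inside the WT range. The difference was 0.20 (SE 0.053, limma adjusted p = 0.10). It was 0.24 with an adjusted p of 0.026 without Efnb1cKO replicate 6, and 0.21 with an adjusted p of 0.016 when arrays were weighted by their quality. Over 13 alternatives of processing, the adjusted p lay between 0.016 and 0.33. The dim second probe, A_66_P138661, differed by 0.27 (SE 0.16, adjusted p = 0.71). Its difference ran from 0.13 to 0.39 with single arrays left out and from 0.12 to 0.30 under other processing. Within slides 1, 2 and 3 it was 0.58, 0.40 and -0.29.

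The remaining genes had 95% intervals that included 0 at every tested probe and at both ages. Cav3, the muscle caveolin, differed by 0.03 at both ages, with a 95% interval of -0.11 to 0.17 at each. The bright probe of Dysf, which encodes the membrane repair protein dysferlin, differed by -0.04 at P60 (-0.13 to 0.05). The bright probe of Dnm2, which encodes the membrane-cutting GTPase dynamin 2, differed by 0.02 (-0.08 to 0.13). Dimmer probes of both genes had wider intervals. At P60 Dysf A_66_P123684 differed by -0.04 (-0.22 to 0.14) and Dnm2 A_55_P2100679 by 0.08 (-0.08 to 0.24).

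Whether the genotype difference changed with age was tested by the interaction for the same 16 probes. None passed (lowest limma adjusted p = 1, and 0 of 16 with an unadjusted p under 0.05), while 0.0392% of all tested probes did and 1339 of the 35718 had an unadjusted p under 0.05. The interaction values ran from -0.24 to 0.41 with a median of 0. Both ends came from dim probes, Mtm1 A_55_P2043977 and Bin1 A_52_P384956. For the bright Bin1 probe the value was 0, against -0.79 for Amph.

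From P20 to P60, 8 of the 16 probes of the other genes passed in WT, 2 higher and 6 lower, and 12 passed in Efnb1cKO, 4 higher and 8 lower. Over all tested probes, 36.6% passed in WT (18.5% higher and 18.1% lower) and 39.8% in Efnb1cKO (19.9% higher and 19.9% lower). All 8 probes past the threshold in WT were also past it in Efnb1cKO with the same sign. A further 4 passed in Efnb1cKO without passing in WT, and none of these 4 passed the threshold for the interaction. The sign agreed between genotypes for 15 of 16 probes, the exception being the dim Bin1 probe A_52_P384956. Markers of other cell types moved with age as well. All 5 fibroblast markers read lower at P60 in both genotypes, 4 of them past the threshold in each. All 5 macrophage markers read higher in both, 2 past the threshold in each, and 2 of 5 endothelial markers passed as lower in each. Of 4 smooth muscle markers, 2 read lower and 2 higher in each genotype (median difference -0.09 in WT and -0.01 in Efnb1cKO). Past the threshold were 1 higher and 2 lower in WT, and 1 lower in Efnb1cKO. Acta2 fell by 1.85 in WT and 1.35 in Efnb1cKO (limma adjusted p = 1.3e-10 and 4e-09), and the summed level of the list, which bright markers set, was 15.60 to 16.08 at P20 and 14.45 to 15.12 at P60. All 5 red cell markers read lower at P60 than at P20 in both genotypes, past the threshold for 5 in Efnb1cKO and 2 in WT. Of 10 neuron and Schwann cell markers, 1 passed as higher and 2 as lower in each genotype. Of 5 tested skeletal muscle markers, 1 passed as lower in WT and 2 in Efnb1cKO, with differences down to -2.09 and -2.01. Of 5 tested atrial markers, 1 passed as higher in WT and 0 in Efnb1cKO, with medians of 0.76 and -0.42. The part of all these markers in the age differences was not tested.

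**Figure D3:**
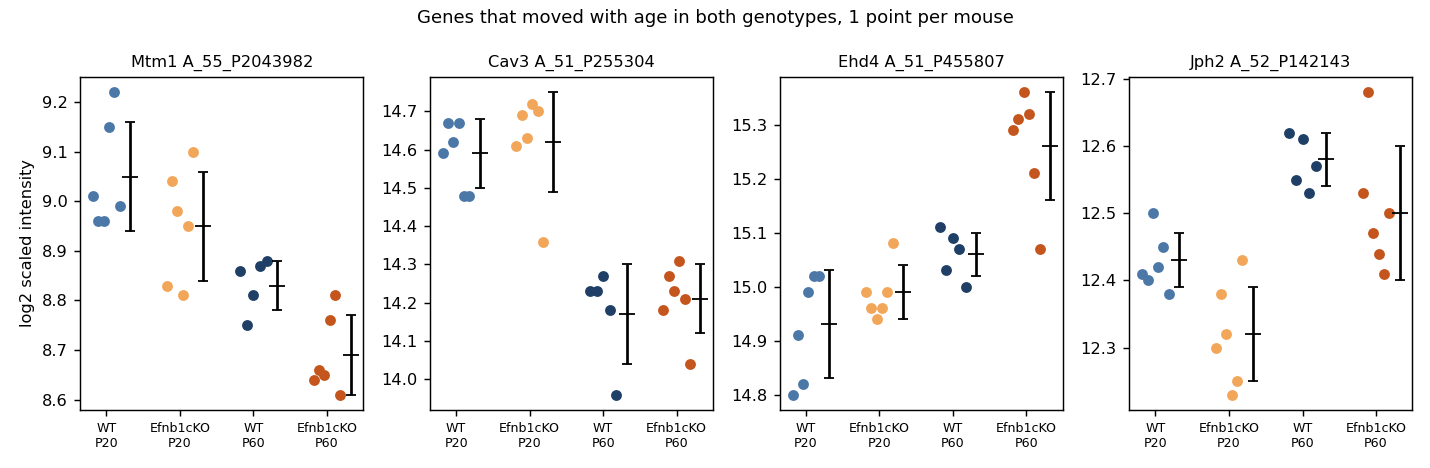
Levels of Mtm1, Cav3, Ehd4 and Jph2, each by its brightest probe, in each ventricle (log2 scale after scaling to the array's 75th percentile). Each point is 1 mouse and the bars give mean and SD; Mtm1 and Cav3 were lower and Ehd4 and Jph2 higher at P60 than at P20 in both genotypes.

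Cav3 fell by 0.41 in WT (SE 0.069, limma adjusted p = 8.1e-05) and by 0.41 in Efnb1cKO (SE 0.065, adjusted p = 4e-05). In WT its levels were 14.48, 14.48, 14.59, 14.62, 14.67 and 14.67 at P20 and 13.96, 14.18, 14.23, 14.23 and 14.27 at P60. In Efnb1cKO they were 14.36, 14.61, 14.63, 14.69, 14.70 and 14.72 at P20 and 14.04, 14.18, 14.21, 14.23, 14.27 and 14.31 at P60. The ages did not overlap in either genotype. The interaction was 0, so the fall was nearly equal, at 75.2% of the P20 signal in each genotype.

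Mtm1 fell in both genotypes at 3 of its 4 probes. For the brightest, A_55_P2043982, the P20 levels were 8.96, 8.96, 8.99, 9.01, 9.15 and 9.22 in WT and 8.81, 8.83, 8.95, 8.98, 9.04 and 9.10 in Efnb1cKO. Against the P60 levels given above, the change was -0.22 in WT (SE 0.06, adjusted p = 0.0073) and -0.27 in Efnb1cKO (SE 0.057, adjusted p = 0.00081), with no overlap between ages in WT or in Efnb1cKO. The largest changes were at A_52_P189246, -0.49 in WT (adjusted p = 0.00064) and -0.65 in Efnb1cKO (adjusted p = 1.8e-05). A_55_P2612988 fell by 0.37 and 0.51 (adjusted p = 0.00057 and 1.2e-05). The dim probe A_55_P2043977 passed in Efnb1cKO (-0.31, adjusted p = 0.014) and read -0.07 in WT (adjusted p = 0.62). Its Efnb1cKO call was lost under 3 of 13 other ways of processing, where the change was as small as -0.09 (adjusted p = 0.31). The WT call for A_55_P2043982 was lost under 2 of 13 other ways of processing, with an adjusted p up to 0.078.

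Jph2 rose slightly with age, by 0.15 in WT (SE 0.047, adjusted p = 0.016) and by 0.19 in Efnb1cKO (SE 0.044, adjusted p = 0.0021). The 5 WT mice at P60, at 12.53, 12.55, 12.57, 12.61 and 12.62, all lay above the highest WT mouse at P20, at 12.50. In Efnb1cKO the P60 range of 12.41 to 12.68 touched the P20 range of 12.23 to 12.43. The WT call was lost under 3 of 13 other ways of processing, with a rise of 0.05 under quantile normalization (adjusted p = 0.41). In the authors' deposited table of log2 values the Efnb1cKO rise was 0.09 (adjusted p = 0.12). It kept passing at 0.12 with quantile normalization (adjusted p = 0.027) and at 0.22 with scaling to the array median (adjusted p = 0.0044). Jph1 differed by 0.16 in WT and 0.09 in Efnb1cKO (adjusted p = 0.096 and 0.31). In WT it passed under 3 of 13 other ways of processing, at up to 0.21 (adjusted p down to 0.024), and without WT replicate 3 at P20, at 0.20 (adjusted p = 0.05 after rounding).

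Ehd4 rose with age in Efnb1cKO. The P20 levels of A_51_P455807 were 14.94, 14.96, 14.96, 14.99, 14.99 and 15.08, so that 5 of the 6 mice at P60 lay above all of them. The rise was 0.27 (SE 0.05, adjusted p = 0.00019), and the dim probe A_66_P138661 rose by 0.55 (adjusted p = 0.0076), or by 0.28 with normexp background correction. In WT the rise of A_51_P455807 was 0.13 (SE 0.053, adjusted p = 0.049), and this call was lost under 8 of 13 other ways of processing, with an adjusted p up to 0.71. It was also lost, with an adjusted p up to 0.12, without WT replicate 1, 2 or 3 at P20 and without WT replicate 1, 3, 4 or 5 at P60. The interaction was 0.14 (adjusted p = 1).

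Bin1, read by A_55_P2073308, fell by 0.15 in WT (SE 0.057, adjusted p = 0.037) and by 0.15 in Efnb1cKO (SE 0.054, adjusted p = 0.031). The ages overlapped in both genotypes. The 2 calls lie near the threshold, and that in WT was lost under 5 and that in Efnb1cKO under 4 of 13 other ways of processing, with adjusted p up to 0.21 and 0.14. The WT call was also lost without replicate 1, 3 or 5 at P20 or replicate 1, 4 or 6 at P60 (adjusted p up to 0.094). That in Efnb1cKO was lost without replicate 3, 5 or 6 at P20 or replicate 3, 4 or 5 at P60 (adjusted p up to 0.078). Amph, its relative, was higher with age in WT, where Bin1 was lower.

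The 3 Dnm2 probes gave different age differences, which is why their sequences are given. A_55_P2724549, at chromosome 9 from 21291992 to 21292051, was lower at P60 in both genotypes, at -0.25 in WT (adjusted p = 0.0077) and -0.23 in Efnb1cKO (adjusted p = 0.0091). A_55_P2100679, at 21308989 to 21309048, rose in Efnb1cKO by 0.26 (adjusted p = 0.0063) and read 0.13 in WT (adjusted p = 0.18). The brightest, A_55_P2001203, at 21311509 to 21311568, read 0.06 in each (adjusted p = 0.34 in both). All 3 lie on the plus strand of mm9 and were designed on different transcripts of the gene. The first of them below and the last have a stop codon in all 3 reading frames, and only their first 30 bases are shown. The middle one has an open frame and is shown whole:
Dnm2 A_55_P2724549: taagtagcacatctggccccttgtcactat
Dnm2 A_55_P2100679: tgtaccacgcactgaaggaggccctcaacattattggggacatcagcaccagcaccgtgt
Dnm2 A_55_P2001203: ggattgaccactgttaagtgcctgcctctg

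Dysf was read by a bright probe that did not pass for age in either genotype, at -0.04 in WT and -0.03 in Efnb1cKO (adjusted p = 0.51 and 0.60). Under quantile normalization and in the authors' deposited table it did pass in both, with falls of up to 0.17 in WT (adjusted p = 0.0049) and 0.14 in Efnb1cKO (adjusted p = 0.011). Its second probe, A_66_P123684, has 60 bases that spread over 1447 bases of chromosome 6, from 84138232 to 84139678 on mm9. That probe fell by 0.24 in Efnb1cKO (SE 0.083, adjusted p = 0.027) and read -0.09 in WT (adjusted p = 0.45). This call was lost under 4 of 13 other ways of processing (adjusted p up to 0.11), and without Efnb1cKO replicate 4, 5 or 6 at P20 or replicate 3 or 5 at P60 (adjusted p up to 0.082). Its sequence is shown because its bases are not one unbroken stretch of the genome:
Dysf A_66_P123684: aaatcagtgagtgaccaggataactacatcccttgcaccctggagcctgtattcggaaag

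**Figure D4:**
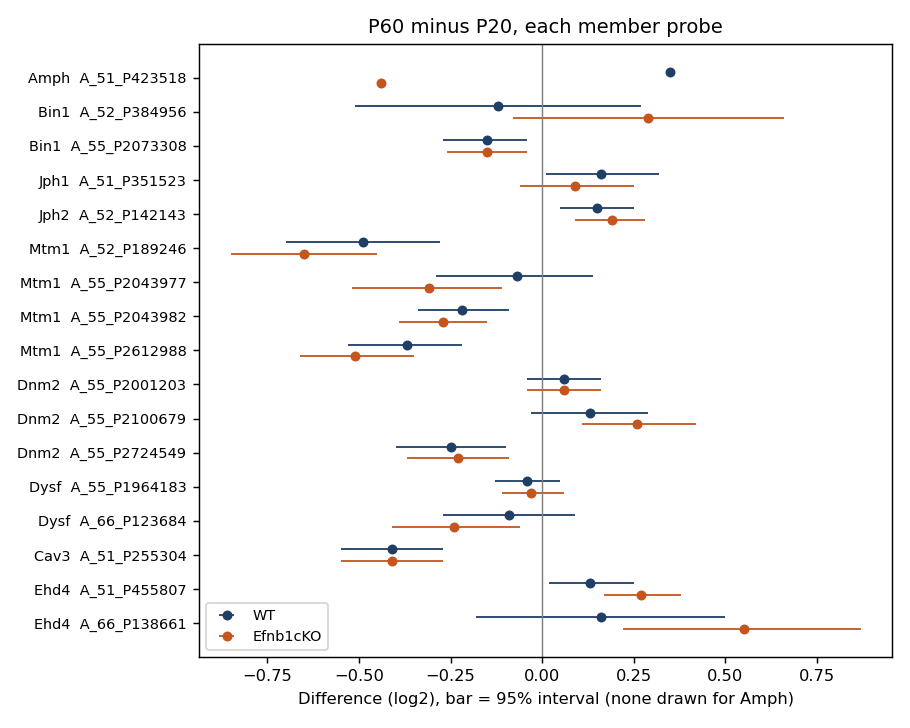
Difference between P60 and P20 (log2, P60 minus P20) in WT and in Efnb1cKO ventricles for the 17 tested probes, with 95% intervals for the 16 probes of the other genes. The Amph differences, drawn without an interval since Amph was chosen by its course over these groups, are 0.35 in WT and -0.44 in Efnb1cKO.

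Other genes of the same pathways were taken from 5 lists holding 109 genes, each read by its brightest tested probe. Of the 105 genes tested, none passed for genotype at P20, at P60 or for the interaction, where 0.0355%, 0.757% and 0.0473% of 16901 genes passed. Unadjusted p was under 0.05 for 2, 9 and 1 of them, and for 843, 1508 and 544 of all 16901 genes tested. Their P60 genotype differences lay between -0.35 and 0.24. The largest was Capn3, a calcium-dependent protease of muscle, at -0.35 (limma adjusted p = 0.46), and its second probe read -0.42 (adjusted p = 0.23).

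With age in WT, 28 of the 105 genes rose and 18 fell (43.8% in all). Over all genes 41.3% passed, 23.9% higher and 17.4% lower. In Efnb1cKO 28 rose and 19 fell (44.8% in all), and over all genes 42.9% passed, 24.6% higher and 18.3% lower. Among 36 genes of BAR-domain proteins and endocytosis, 8 rose and 8 fell in WT. Pacsin2 and Pacsin3, F-BAR proteins of the same superfamily as Amph and Bin1, rose by 0.48 (adjusted p = 9.6e-08) and 0.41 (adjusted p = 4.5e-06) in WT. In Efnb1cKO they rose by 0.46 and 0.44, with interactions of -0.02 and 0.03. Dnm3, a dynamin like Dnm2, fell by 0.83 in WT (adjusted p = 0.00017) and 0.76 in Efnb1cKO, and Ehd1, of the same family as Ehd4, fell by 0.23 in WT (adjusted p = 0.033).

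Of 14 genes of the T-tubule and Z-disc scaffold, 7 rose and 1 fell in WT. Lrrc10 rose by 0.50 (adjusted p = 3.8e-05) and Cmya5, which encodes the dyad organiser myospryn, by 0.46 (adjusted p = 9e-08), while Tjp1, the tight junction scaffold ZO-1, fell by 0.39 (adjusted p = 1.6e-05). Of 17 genes of caveolae and membrane repair, 4 rose and 3 fell. Murc, which encodes the muscle cavin, rose by 0.70 (adjusted p = 3.3e-06) and Capn3 by 0.67 (adjusted p = 0.0011), while Sdpr, another cavin, fell by 0.17 (adjusted p = 0.024) and Cav2 by 0.16 (adjusted p = 0.043). Murc and Cav3 thus moved in opposite directions with age, and each moved alike in both genotypes, with interactions of 0.02 and 0.

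Of 18 genes of calcium release at the dyad, 6 rose and 3 fell in WT. S100a1, a calcium sensor that acts on the release channel, rose by 0.52 (adjusted p = 1.8e-06) and Hrc, a calcium buffer of the sarcoplasmic reticulum, by 0.31 (adjusted p = 0.0014). Fkbp1b, the release channel's binding partner, fell by 0.20 (adjusted p = 0.012). Cacna1c, the L-type calcium channel of the T-tubule, fell by 0.22 at its brightest probe (adjusted p = 0.032), but its 3 other probes read 0.09 to 0.11 without passing. Of 20 phosphoinositide enzymes, 3 rose and 3 fell. Pikfyve, a kinase that acts on the same lipid as myotubularin, fell by 0.35 at its brightest probe (adjusted p = 0.0033) and by 0.32 at another (adjusted p = 0.02). Its 2 remaining probes read -0.08 and 0.08 without passing. Inpp5k, a phosphatase, fell by 0.28 (adjusted p = 0.0023). Pip5k1b rose by 0.19 (adjusted p = 0.025). Pik3c2b rose by 0.35 at its brightest probe (adjusted p = 0.006) and fell by 0.33 at another (adjusted p = 0.0011). The WT age calls of Cav2, Ehd1, Cacna1c, Sdpr, Pip5k1b and Fkbp1b were lost under some of the alternatives.

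**Figure D5:**
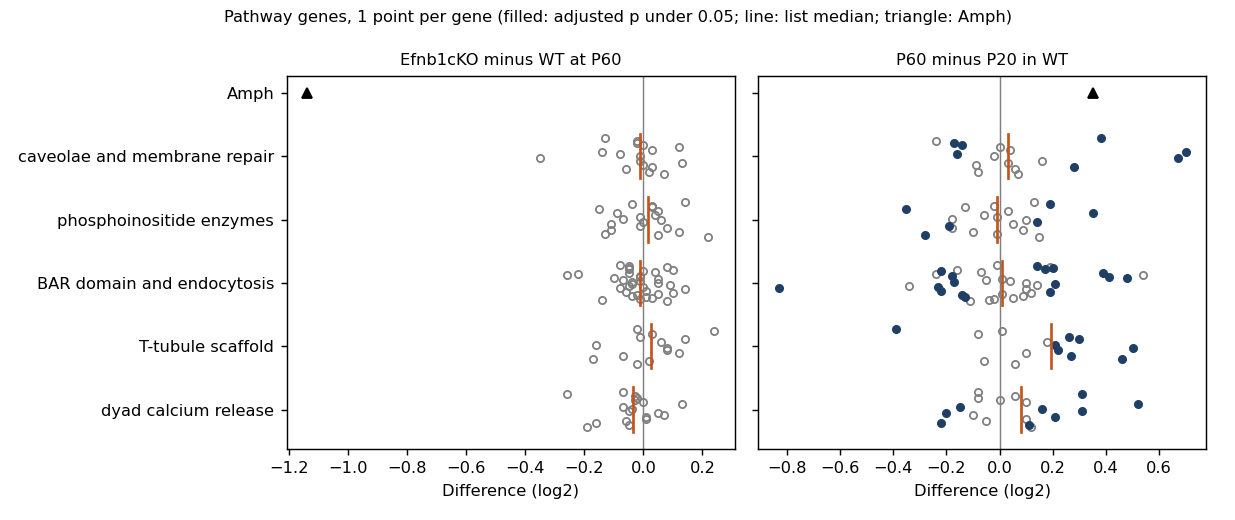
Differences (log2) of the pathway genes, 1 point per gene and 1 row per list, between genotypes at P60 (left) and between ages in WT (right). Filled points passed an adjusted p of 0.05, the line is the list's median and the triangle is Amph; none of the 105 genes passed for genotype at P60 and 46 passed for age in WT.

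Markers of other cells were read beside the Amph difference. Amph is also a gene of neurons, and the summed level of 10 neuron and Schwann cell markers lay between 13.75 and 14.11 in every group. Single markers differed between genotypes by -0.81 to 0.11 at P20, with 7 of 10 lower in Efnb1cKO, and by -0.49 to 0.12 at P60, with 6 lower. None of the 10 passed for genotype at either age. Of the 5 tested skeletal muscle markers, 4 read higher and 1 lower in Efnb1cKO at P60, with a median difference of 0.41, while their summed level went the other way, at 12.60 to 13.17 in WT and 11.89 to 12.66 in Efnb1cKO. Tnnt3 was higher by 0.68 (limma adjusted p = 0.0083) and Myl1 lower by 0.93 (adjusted p = 0.026), while Myh1 and Actn3 were above background on 0 arrays and Myh2 on 3. None of the tested markers of atrial myocardium, endothelium, fibroblasts, smooth muscle, macrophages or red cells passed for genotype at P20 or P60 or for the interaction. At P20 all 5 atrial markers and all 5 red cell markers read higher in Efnb1cKO, with medians of 1.10 and 0.50, and at P60 the medians were 0.15 and -0.11. Their interaction medians were -1.02 and -0.57, negative for 5 of 5 in each list, the same sign as that of Amph. Amph itself differed by -0.35 at P20, where these markers read higher, and by -1.14 at P60. The summed atrial level was 14.72 to 16.92 in WT and 15.37 to 18.31 in Efnb1cKO at P20, and 16.21 to 17.79 and 16.52 to 17.34 at P60. The red cell sum was 18.09 to 18.43 and 18.24 to 18.66 at P20, and 17.97 to 18.29 and 17.87 to 18.30 at P60. The part of these markers in the Amph difference was not tested.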

How the data were processed

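Total RNA of 23 left ventricles was labelled with Cy3 and hybridised to one-colour Agilent arrays, per the labels' protocols. The deposited scanner files hold the intensity of 62976 spots, 3671 of them controls, read with Agilent Feature Extraction 10.10.1.1, per the submitters' processing notes, and their processed signal was background-corrected, per the file headers. The authors' deposited table of log2 values, whose normalization is not given in the sources used here, served only as an alternative. Probe coordinates are those of mm9, per the file headers.

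The log2 processed signal was scaled to each array's 75th percentile, outlier spots were left out, and spots of a probe were averaged. Probes well above background on at least 5 arrays were tested. Different probes of a gene were kept apart. Groups, taken from the sample titles, entered 1 fit in limma 3.58.1 under R 4.3.3 (4 group means, 19 residual degrees of freedom, 5 contrasts, two-sided, Benjamini-Hochberg over all tested probes, threshold 0.05). Intervals are 95% intervals of a difference between group means, from the SE of the fit and the 19 residual degrees of freedom. They rest on the spread between mice within groups. The limma p-values use further degrees of freedom borrowed over probes. The number of arrays limits the precision. Marker levels are log2 of the summed linear levels. The procedure was tested on simulated data.

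The members, lists and rules were chosen with earlier results of these data known. Named from the lists are genes past the threshold for genotype or the interaction (up to 4 a list) and, for age in WT, the 2 that rose and the 2 that fell most; the 5 genes most like Amph are named by r. Neighbours of Amph and second probes of named genes were added after values were seen. The array names of all 9 members matched a RefSeq symbol. Alternatives covered background, scaling, the signal column, filters on dim probes, slide, place on the slide and replicate number as blocks, array weights, the variance prior, the groups in the fit, the authors' values and leaving out each array.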

Additional observations from a re-analysis of the deposited data

Results flagged for a closer look

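The genotype difference of Amph was larger at P60 than at P20, by -0.79 on the log2 scale, and is listed because it differs between the ages; Amph was chosen for it, so no test is given.

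Single mice stood apart from the other mice of their group in 11 of 68 groups of member probes, by the gap to the nearest mouse over the range of the group. Chance alone marks about 1 in 20 groups, and probes share mice, so these are not separate events. For Cav3, Efnb1cKO replicate 6 at P20 was low at 14.36 and WT replicate 6 at P60 was low at 13.96. The same Efnb1cKO mouse was high for Ehd4 A_51_P455807, at 15.08. For Bin1, probe A_52_P384956 was high in WT replicate 3 at P20 (4.91) and low in Efnb1cKO replicate 3 at P60 (3.47), and A_55_P2073308 was high in Efnb1cKO replicate 6 at P60 (10.10). Jph1 was low in WT replicate 4 at P60 (6.10), and Mtm1 A_52_P189246 was high in Efnb1cKO replicate 4 at P60 (7.36). Dnm2 A_55_P2100679 was low in Efnb1cKO replicate 3 at P20 (6.72) and high in Efnb1cKO replicate 2 at P60 (7.59), and Dnm2 A_55_P2724549 was low in Efnb1cKO replicate 2 at P20 (8.13).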

How the results depend on the processing

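Amph kept its sign in all 5 contrasts under every alternative run. Its P60 difference lay between -1.20 and -0.69 over 13 alternatives of processing, with -0.69 under normexp, -0.86 from the median spot signal and -0.87 from the authors' values, and from -1.19 to -1.09 with single arrays left out. Under normexp the P20 genotype difference was -0.21 and the age difference in Efnb1cKO was -0.23. The interaction was -0.49 under normexp and -0.60 from both the median spot signal and the authors' values. The cause was not tested.

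The count of the 16 other probes past the threshold at P60 was 0, but 1 (Ehd4 A_51_P455807) with array weights, and 0 to 1 with single arrays left out, 1 without Efnb1cKO replicate 6. At P20 and for the interaction it was 0 throughout. For age it was 6 to 9 in WT and 10 to 13 in Efnb1cKO. Counting each named probe and contrast once per alternative, other processing ended the call in 55 of 1266 cases and added one in 8, and leaving out arrays did so in 46 and 2 of 1313.

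Replicate numbers were not used to pair the mice in the main fit. Same-numbered mice deviated together (correlation over 0.1) in 4 of 6 pairs for genotype at P20, 3 of 5 at P60, 2 of 5 for age in WT and 1 of 6 in Efnb1cKO. For genotype at P20 the correlations were all positive, from 0.031 to 0.39. Whether mice of the same number shared handling was not tested. With the replicate block, 7 probes passed for age in WT, 12 in Efnb1cKO and 0 in the other contrasts. Dim probes (Bin1 A_52_P384956, Mtm1 A_55_P2043977, Ehd4 A_66_P138661) limit what can be said of those transcripts.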
